A study of Mus musculus with 4 samples.

Results

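Expression of 10 genes that mark osteocyte maturation and mineral formation was followed in MLO-Y4 cells with and without mechanical loading. The genes are *Pdpn*, *Dmp1*, *Phex*, *Mepe*, *Sost*, *Fgf23*, *Bglap*, *Runx2*, *Sp7* and *Alpl*. They were taken by name from the 55450 genes of the count table, where each name occurs on a single row. MLO-Y4 is a mouse osteocyte-like line, made from long bone of a mouse in which the osteocalcin promoter drives a viral large T antigen. Its genotype is recorded as WT. Both groups hold 2 libraries from this line. The loaded cultures grew to 60% confluency on flexible silicone membranes coated with type I collagen and were then stretched in all directions for 12 h at 0.5 Hz and 20% strain. The unloaded cultures reached the same confluency on ordinary culture plates and stood for 12 h in the incubator of the loading device. Loading and the change of plate therefore cannot be told apart. The records do not say whether the replicates came from separate cultures, so the p-values below measure the spread between these libraries, which may be technical.

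Osteocytes arise from osteoblasts that become buried in the matrix they lay down. The osteoblast stage is driven by the transcription factors RUNX2 and osterix (*Sp7*), and it is known for alkaline phosphatase (*Alpl*), which frees phosphate for mineral, and osteocalcin (*Bglap*), a calcium-binding matrix protein. Podoplanin, also named E11 and encoded by *Pdpn*, marks the embedding cell that grows dendrites. The mineralizing osteocyte then makes *Phex*, *Dmp1* and *Mepe*, which act on mineral and on phosphate balance, and the mature osteocyte makes the secreted factors sclerostin (*Sost*), an inhibitor of Wnt signaling, and FGF23, a hormone that lowers blood phosphate.

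The libraries held between 28941994 and 32185693 counts. Expression is given as CPM, the counts scaled to a common library size with TMM factors, and levels of different genes are compared as CPM per kilobase of exon. Depth is not the same as the number of reads, because the deposited counts were computed from transcript coverage. Low counts clustered at multiples of 4. A count of 4 was listed for between 1223 and 1259 genes per library, which was 1.76 to 1.89 times the mean of the neighbouring counts 3 and 5. At a count of 8 this ratio was 1.74 to 2.11, and at 12 it was 1.55 to 1.69. A listed count of 4 can therefore not be read as 4 separate reads. A floor of 3 counts, which covers counting error only, lay between 0.0930 and 0.103 CPM.

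**Figure D1:**
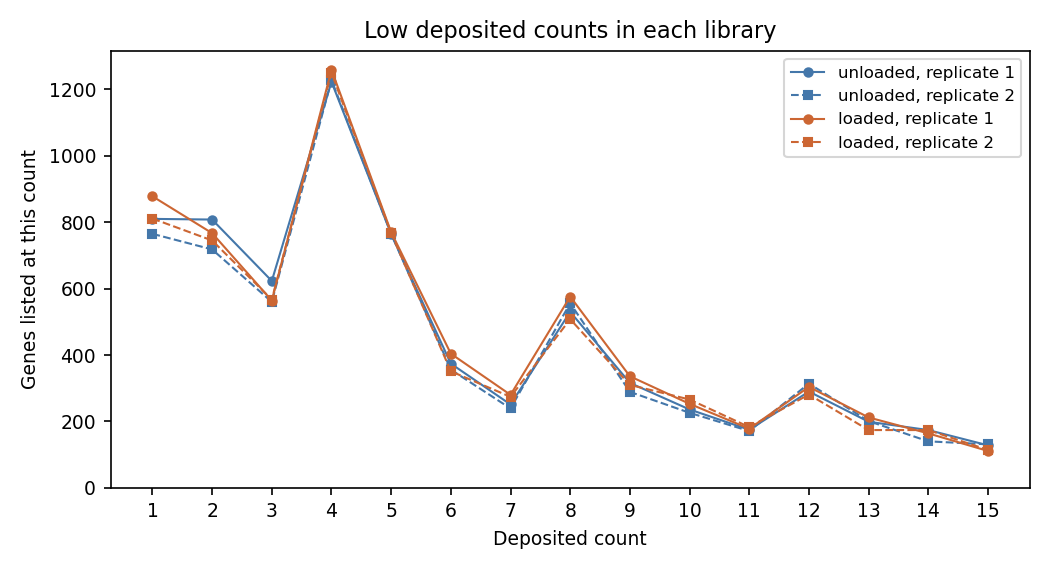
Number of genes (vertical axis) listed at each deposited count from 1 to 15 (horizontal axis) in the 4 libraries, unloaded in blue and loaded in orange. Every library shows peaks at 4, 8 and 12, with 1223 to 1259 genes at a count of 4.

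Of the 10 genes, 3 were well expressed and 7 were at or near the limit of detection. *Pdpn*, *Phex* and *Runx2* had at least 1000 counts in every library and together made up 99.2% to 99.7% of the summed CPM of the 10 genes. The other 7 genes had at most 25 counts in any library. Their counts summed to 54 and 33 in unloaded cells and to 46 and 29 in loaded cells. *Mepe* had no count in any library. The floor of 3 counts treats counts as separate reads, so it is not a firm upper limit for this gene. *Pdpn* led the order of levels with 80.9 ± 3.15 CPM per kilobase in unloaded and 122 ± 5.02 in loaded cells (SD, n = 2, as for all values below). This was higher than 97.4% of the 16269 genes that passed the filter on low counts. *Phex* followed with 6.96 ± 0.0103 and 8.21 ± 0.931 CPM per kilobase, and *Runx2* with 5.53 ± 0.0559 and 6.20 ± 0.253. These are middling levels, above 60.2% of the tested genes for *Phex* and above 54.1% for *Runx2*. The level of *Pdpn* was 11.6 times that of *Phex* in unloaded and 14.9 times in loaded cells. The order of *Phex* and *Runx2* was not fixed. In unloaded cells, with the longest transcript as length instead of all exons, *Runx2* had 7.56 and *Phex* 6.99 CPM per kilobase. The other 7 genes lay between 0 and 0.228 CPM per kilobase in every library, and most of them overlapped with each other. *Dmp1*, at 0.143 to 0.174 CPM per kilobase, lay above *Sost* and *Mepe* in every library. It also lay above *Alpl* per kilobase of all exons. In loaded replicate 2, however, *Alpl* had 14 counts and *Dmp1* 12, so the order of these 2 genes there depended on the length used.

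**Figure D2:**
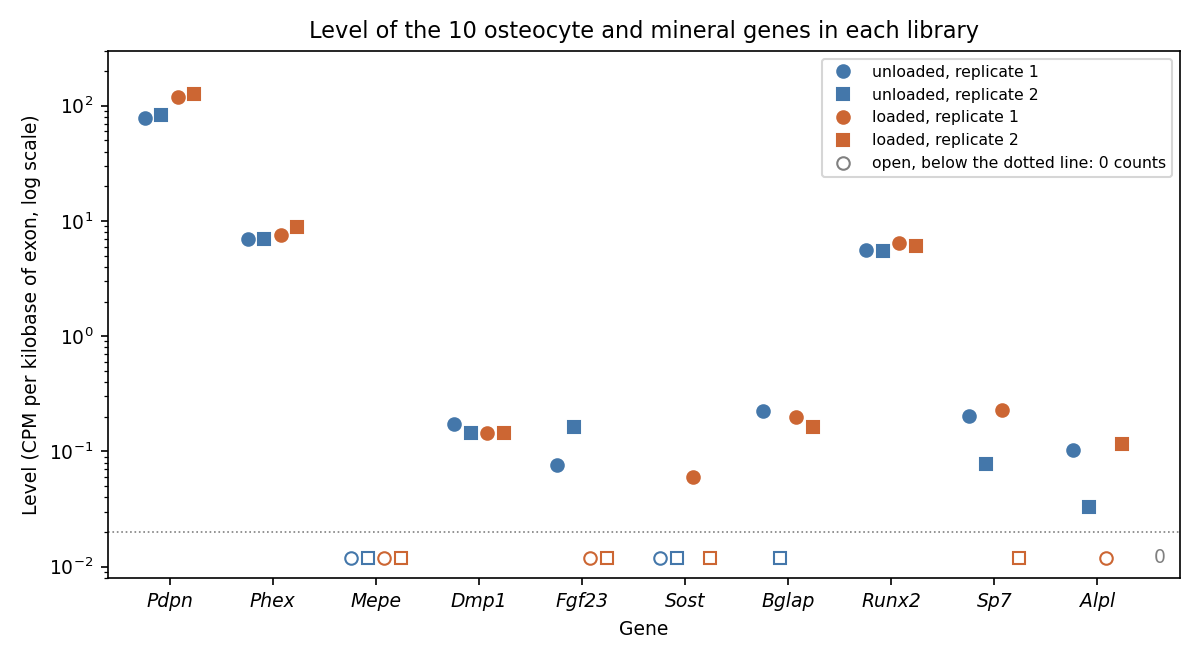
Level of each of the 10 genes (horizontal axis) in CPM per kilobase of exon on a log scale (vertical axis), with 1 point per library, unloaded in blue and loaded in orange, circles for replicate 1 and squares for replicate 2. *Pdpn*, *Phex* and *Runx2* lie above 5 CPM per kilobase in every library, the other 7 genes lie below 0.3, and open points under the dotted line are libraries with 0 counts.

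Of the 10 genes, 6 passed the filter on low counts and were tested, and *Mepe*, *Sost*, *Fgf23* and *Bglap* did not pass it. With edgeR's quasi-likelihood test none of the 6 passed an adjusted p of 0.01, against 0.0983% of all tested genes. The study applied this threshold to DESeq2 and not to edgeR's quasi-likelihood test. At an unadjusted p under 0.05 there was 1 gene, *Pdpn*, against 14.3% of all tested genes. *Pdpn* also passed an edgeR adjusted p of 0.05, as did 0.904% of all tested genes, and it passed 0.01 with DESeq2, as did 2.91% of the genes to which DESeq2 gave an adjusted p. It passed with edgeR's exact test too, which called 1.71% of all tested genes at 0.01, and no gene of the 10 passed with limma-voom, which also called 0.0983%. The CPM values of the groups did not overlap in 3 of the 6 tested genes, against 46.6% of all tested genes, so this share is near the background.

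*Pdpn* (ENSMUSG00000028583.14, chromosome 4, 143267431 to 143299564 on the minus strand of GRCm38) was the gene of the group that differed with loading. It had 4154 and 4580 counts without loading and 6943 and 6798 counts with it. As expression this was 143 and 151 CPM against 215 and 228 CPM. Both loaded libraries lay above both unloaded ones, and the lower loaded value was 1.42 times the higher unloaded value. The change was 1.51-fold, or 0.59 on the log2 scale with a 95% interval of 0.42 to 0.76 (edgeR adjusted p = 0.0334, DESeq2 adjusted p = 2.2e-08, edgeR adjusted p = 0.0807 with the replicate block). No exon of another annotated gene overlaps those of *Pdpn*. In these bulk libraries, more cells that make a transcript and more transcript per cell cannot be told apart.

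**Figure D3:**
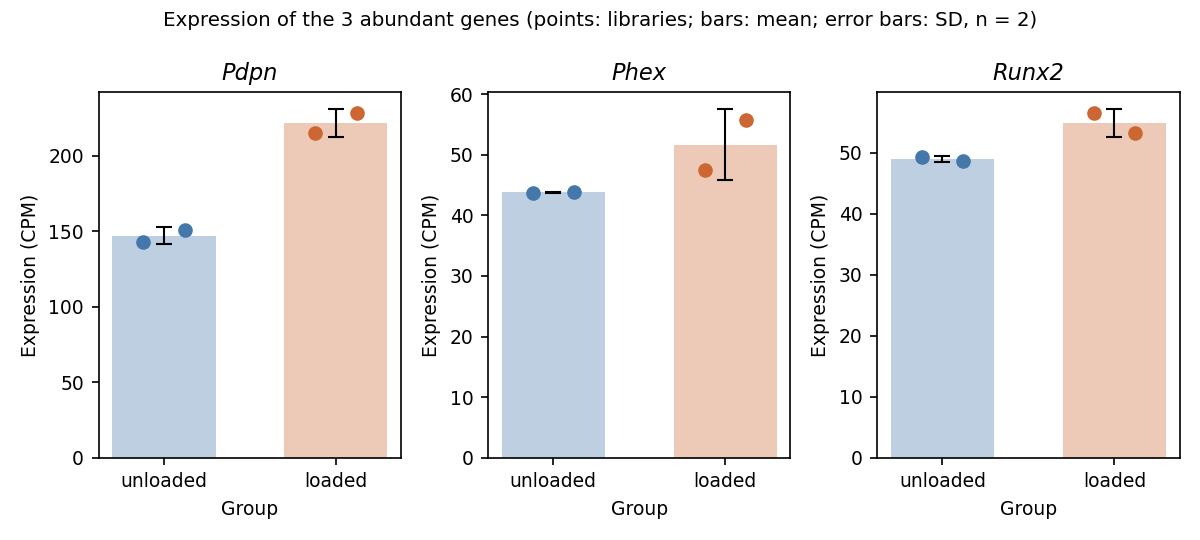
Expression in CPM (vertical axis, from 0) of *Pdpn*, *Phex* and *Runx2* in unloaded and loaded cells (horizontal axis), with points for the libraries, bars for the mean and error bars for the SD (n = 2). The groups are apart in all 3 panels, by 147 against 222 CPM for *Pdpn* and by less for *Phex* and *Runx2*, whose 95% intervals of the change include 0.

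The 250 bases before the start site of *Pdpn* (RefSeq, GRCm38.p6, chr4:143299565-143299814, minus strand) are shown because some of the tests called this gene. The promoters of *Runx2* (chr17:44814628-44814877, minus strand) and *Bglap* (chr3:88384467-88384716, minus strand) are set beside it. RUNX2, whose RNA was present here, is known to act on the osteocalcin promoter, while *Bglap* had few counts. The window was searched on both strands for the RUNX core ACCACA, the AP-1 site TGANTCA, the antioxidant response core TGACNNNGC, the GC box GGGCGG and the TATA box TATAAA, and matches are in capitals.
*Pdpn*: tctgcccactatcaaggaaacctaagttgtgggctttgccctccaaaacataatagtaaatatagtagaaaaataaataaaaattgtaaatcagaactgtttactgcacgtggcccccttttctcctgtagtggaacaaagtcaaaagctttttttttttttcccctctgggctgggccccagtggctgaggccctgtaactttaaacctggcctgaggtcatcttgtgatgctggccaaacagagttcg
*Runx2*: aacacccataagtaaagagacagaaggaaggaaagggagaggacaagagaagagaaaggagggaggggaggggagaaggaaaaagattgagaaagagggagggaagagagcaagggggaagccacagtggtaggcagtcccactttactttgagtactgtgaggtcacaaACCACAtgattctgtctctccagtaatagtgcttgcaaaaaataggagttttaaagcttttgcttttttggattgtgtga
*Bglap*: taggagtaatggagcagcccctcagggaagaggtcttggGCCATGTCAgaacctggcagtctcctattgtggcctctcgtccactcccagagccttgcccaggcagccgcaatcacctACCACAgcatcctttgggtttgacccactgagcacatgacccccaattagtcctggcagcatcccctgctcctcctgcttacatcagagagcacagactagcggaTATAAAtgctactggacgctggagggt
The *Pdpn* window holds none of the 5 motifs. That of *Runx2* holds 1 RUNX core, which 14.0% of 32851 mouse promoters of this length hold. The *Bglap* window holds 1 RUNX core, 1 antioxidant response core (in 10.2% of promoters) and 1 TATA box (in 12.4%), and the matches do not overlap. The AP-1 site occurs in 6.75% and the GC box in 32.7% of promoters. A match is a run of letters and not a measured site. Promoters were matched for 9 of the 10 genes, all but *Sp7*.

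Podoplanin spans the membrane and links to the cortical actin skeleton, and a list of 11 genes held *Pdpn* and its known partners. Of the 10 that were tested, DESeq2 called *Pdpn* higher and *Cd82* lower, against 2.91% of the genes with a DESeq2 adjusted p. The quasi-likelihood test and limma-voom called 0 at 0.01. Edge cases were 4 genes at an unadjusted edgeR p under 0.05 (14.3% of all tested genes) and 2 with edgeR's exact test (1.71%). *Cd82*, a tetraspanin, had 82.1 and 82.8 CPM in unloaded and 46.3 and 43.2 CPM in loaded cells. Its log2 fold change was -0.88 with a 95% interval of -1.10 to -0.66 (edgeR adjusted p = 0.0216, DESeq2 adjusted p = 6.14e-10). *Cd9*, a tetraspanin known to bind podoplanin, had 199 ± 2.31 and 232 ± 11.6 CPM (log2 fold change 0.22, edgeR adjusted p = 0.219). The genes of the proteins that tie podoplanin to actin did not pass any of the tests. RNA of 1 of them, moesin (*Msn*), was abundant, with 962 ± 26.0 CPM in unloaded and 1041 ± 110.1 CPM in loaded cells. *Clec1b*, the platelet receptor of podoplanin, was listed at 4 counts in loaded replicate 2 and at 0 elsewhere.

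*Phex* (ENSMUSG00000057457.11, chromosome X, 157162075 to 157415312, minus strand) encodes an endopeptidase of the osteoblast and osteocyte surface whose loss raises FGF23. It had 1270 and 1328 counts in unloaded and 1532 and 1662 counts in loaded libraries, or 43.7 and 43.8 CPM against 47.5 and 55.8 CPM. The loaded values lay above the unloaded ones, but they differed more from each other than the lower of them did from the unloaded cells. The log2 fold change was 0.24 with a 95% interval of -0.036 to 0.51, and it did not pass the test (edgeR adjusted p = 0.408, DESeq2 adjusted p = 0.486). It ranged from 0.12 without loaded replicate 2 to 0.35 without loaded replicate 1.

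*Fgf23* (ENSMUSG00000000182.9, chromosome 6, 127072902 to 127081408, plus strand) had 4 and 9 counts without loading and 0 counts in either loaded library. The groups did not overlap, but the total of 13 counts was under the filter. In the fit without a filter on low counts its unadjusted edgeR quasi-likelihood p was 0.0563 and its adjusted p was 0.559. A difference was thus not detectable at this depth. Among 12 genes of the FGF23 and PHEX axis, *Galnt3*, which shields FGF23 from cleavage, the coreceptor *Kl* and the vitamin D hydroxylase *Cyp24a1* had no count in any library. The 6 tested genes had a median log2 fold change of -0.15, against -0.0089 over all tested genes. None passed at 0.01 in the quasi-likelihood test, DESeq2, edgeR's exact test or limma-voom. Over all genes with an adjusted p these tests called 0.0983%, 2.91%, 1.71% and 0.0983%. An unadjusted edgeR p under 0.05 was found for 1 of the 6, against 14.3% of all tested genes. This was *Fgf2*, a growth factor known to induce FGF23, with 7.69 ± 0.327 and 4.78 ± 1.49 CPM (edgeR adjusted p = 0.320). *Furin*, a convertase of the FGF23 cleavage site, had 56.7 ± 15.9 and 75.1 ± 0.527 CPM (edgeR adjusted p = 0.394). The receptor *Fgfr1* had 126 ± 0.395 and 124 ± 12.0 CPM.

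*Dmp1* and *Mepe* belong to the SIBLING family of acidic matrix phosphoproteins, whose genes lie in a row on the plus strand of chromosome 5. *Dmp1* (ENSMUSG00000029307.7, 104202613 to 104214102) had 14 and 12 counts in unloaded and 13 and 12 in loaded libraries, and it was the only one of the 7 low genes with a count above 5 in every library. They correspond to 0.482 and 0.396 CPM against 0.403 and 0.403 CPM. The log2 fold change was -0.12 with a 95% interval of -1.64 to 1.39 (edgeR adjusted p = 0.956). *Mepe* (ENSMUSG00000053863.3, 104325329 to 104338611), *Dspp* and *Ibsp* had 0 counts throughout. Only *Spp1* of the 5 genes in the row was abundant. It encodes osteopontin and lies at 104435118 to 104441050. *Spp1* had 11867 and 12287 counts in unloaded and 8796 and 8979 in loaded libraries, or 409 and 405 CPM against 273 and 301 CPM. Both loaded values were below both unloaded ones. The log2 fold change was -0.50 with a 95% interval of -0.67 to -0.34 (edgeR adjusted p = 0.0405, DESeq2 adjusted p = 9.43e-07), of the opposite sign to that of *Pdpn*. Exons of *Gm42793* share 309 bases on the same strand with *Spp1*, and *Gm42793* had 45 to 101 counts per library.

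*Spp1* was 1 of 11 noncollagenous matrix proteins followed with the SIBLING genes, of which 7 were tested. DESeq2 called 3 of them lower and none higher, namely *Spp1*, *Ogn* and *Bgn*. It called 2.91% of the genes to which it gave an adjusted p. The quasi-likelihood test and limma-voom called none at 0.01, and edgeR's exact test called 1 lower, against 1.71% of all tested genes. At an unadjusted edgeR p under 0.05 there were 4 lower and 1 higher, against 14.3% of all tested genes. The higher one was *Tnc*, which encodes the matrix glycoprotein tenascin C, with 59.6 ± 2.42 and 72.9 ± 1.63 CPM (log2 fold change 0.29, edgeR adjusted p = 0.230, DESeq2 adjusted p = 0.172). The median log2 fold change of the 7 genes was -0.41, against -0.0089 over all tested genes. *Bgn*, which encodes the proteoglycan biglycan, had 196 and 225 CPM in unloaded and 151 and 165 CPM in loaded cells (log2 fold change -0.41, edgeR adjusted p = 0.134, DESeq2 adjusted p = 0.00389). The small leucine-rich proteoglycan genes *Ogn* and *Omd* lie next to each other on chromosome 13. *Ogn* had 8.95 ± 0.731 and 3.31 ± 1.48 CPM (log2 fold change -1.44, edgeR adjusted p = 0.140, DESeq2 adjusted p = 0.00876). This was -1.03 without loaded replicate 1 and -1.98 without loaded replicate 2. *Omd* had 7.40 ± 1.25 and 3.32 ± 0.619 CPM (log2 fold change -1.16, edgeR adjusted p = 0.129, DESeq2 adjusted p = 0.0487). *Sparc*, which encodes osteonectin, had 856 ± 30.4 and 873 ± 18.0 CPM, with a log2 fold change of 0.029 and a 95% interval of -0.10 to 0.16. *Ibsp*, *Mgp* and *Fmod* had no count.

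*Sost* (ENSMUSG00000001494.6, chromosome 11, 101962458 to 101967015, minus strand), the marker of the mature osteocyte, had 4 counts in loaded replicate 1 and 0 in the other 3 libraries. It was not tested and no change could be read from it. Of its known regulators, *Mef2c* had 12.3 ± 3.37 and 9.60 ± 5.64 CPM and *Hdac5* had 89.9 ± 3.89 and 86.8 ± 0.372 CPM. Other genes enriched in osteocytes were unevenly present. Of 9 such genes, *Dkk1*, *Ptprz1* and *Tnfrsf19* had no count, and the other 6 were tested. None of the 6 passed at 0.01 in the quasi-likelihood test, DESeq2, edgeR's exact test or limma-voom. Over all genes with an adjusted p these tests called 0.0983%, 2.91%, 1.71% and 0.0983%. An unadjusted edgeR p under 0.05 was found for 1 of the 6, against 14.3% of all tested genes. This was *Capg*, an actin-capping protein gene, with 153 ± 2.81 and 171 ± 1.33 CPM (edgeR adjusted p = 0.336). *Gja1*, which encodes the connexin of osteocyte gap junctions, had 500.1 and 494 CPM in unloaded and 584 and 485 CPM in loaded cells, and the groups overlapped. *Cd109* had 277 ± 2.84 and 304 ± 10.3 CPM (edgeR adjusted p = 0.374), and *Dstn*, which encodes the actin-severing protein destrin, had 539 ± 10.9 and 570 ± 33.6 CPM (edgeR adjusted p = 0.625).

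*Runx2* (ENSMUSG00000039153.16, chromosome 17, 44495987 to 44814797, minus strand) had 1430 and 1471 counts in unloaded and 1820 and 1587 counts in loaded libraries. As expression this was 49.2 and 48.5 CPM against 56.4 and 53.2 CPM. The groups did not overlap, and the log2 fold change was 0.17 with a 95% interval of -0.062 to 0.39 (edgeR adjusted p = 0.487, DESeq2 adjusted p = 0.668). Exons of *Runx2os1* on the opposite strand cover 519 bases of *Runx2*, and *Runx2os1* had 9 to 23 counts per library. *Sp7* (ENSMUSG00000060284.7, chromosome 15, 102356606 to 102367182, minus strand), whose product acts downstream of RUNX2, had 20 and 8 counts in unloaded and 25 and 0 counts in loaded libraries. *Alpl* (ENSMUSG00000028766.10, chromosome 4, 137741733 to 137796384, minus strand) had 12 and 4 counts in unloaded and 0 and 14 counts in loaded libraries. The spread within groups was larger than any difference between them for both genes. The 95% interval of the log2 fold change was -3.62 to 3.07 for *Sp7* and -3.70 to 3.25 for *Alpl*, which leaves changes of several fold in either direction undetectable.

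A list of 19 partners and regulators of these factors had 14 tested genes with a median log2 fold change of -0.11. None passed at 0.01 in the quasi-likelihood test, DESeq2, edgeR's exact test or limma-voom. Over all genes with an adjusted p these tests called 0.0983%, 2.91%, 1.71% and 0.0983%. None of the list had an unadjusted edgeR p under 0.05, against 14.3% of all tested genes. *Twist2*, an inhibitor of RUNX2, had 87.2 and 58.9 CPM in unloaded and 51.4 and 59.3 CPM in loaded cells, and the groups overlapped (edgeR adjusted p = 0.415). *Cbfb*, the binding partner of RUNX proteins, had 181 ± 15.6 and 166 ± 5.58 CPM (edgeR adjusted p = 0.540). *Twist1*, a related inhibitor, had 50.9 ± 6.71 and 42.9 ± 2.60 CPM (edgeR adjusted p = 0.435), and *Hdac4*, a corepressor of RUNX2, had 20.3 ± 1.87 and 24.5 ± 0.609 CPM (edgeR adjusted p = 0.371). The homeobox genes *Dlx5*, *Dlx6* and *Msx2* of the osteoblast lineage and the *Runx2* antagonist *Zfp521* had no count.

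*Bglap* (ENSMUSG00000074483.2, chromosome 3, 88383501 to 88384464, minus strand) had 4 and 0 counts in unloaded and 4 and 3 in loaded libraries. It has near-identical neighbours, *Bglap2* (88377736 to 88378699) and *Bglap3* (88368616 to 88372743), with which it could share reads. Their coding sequences, from the GENCODE M21 transcripts, are each 288 bases long and are shown because the counts of the copies depend on telling them apart. Capitals mark the bases that differ from *Bglap*.
*Bglap*: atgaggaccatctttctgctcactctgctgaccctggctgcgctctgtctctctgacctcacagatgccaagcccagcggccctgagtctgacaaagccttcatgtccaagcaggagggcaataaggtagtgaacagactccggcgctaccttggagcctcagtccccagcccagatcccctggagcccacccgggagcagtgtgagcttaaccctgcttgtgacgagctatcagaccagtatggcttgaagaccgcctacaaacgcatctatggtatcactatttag
*Bglap2*: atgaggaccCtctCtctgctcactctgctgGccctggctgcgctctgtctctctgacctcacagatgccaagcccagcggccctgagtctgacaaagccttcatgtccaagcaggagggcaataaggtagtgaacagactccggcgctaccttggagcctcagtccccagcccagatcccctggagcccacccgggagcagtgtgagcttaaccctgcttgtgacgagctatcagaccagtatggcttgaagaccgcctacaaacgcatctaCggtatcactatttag
*Bglap3*: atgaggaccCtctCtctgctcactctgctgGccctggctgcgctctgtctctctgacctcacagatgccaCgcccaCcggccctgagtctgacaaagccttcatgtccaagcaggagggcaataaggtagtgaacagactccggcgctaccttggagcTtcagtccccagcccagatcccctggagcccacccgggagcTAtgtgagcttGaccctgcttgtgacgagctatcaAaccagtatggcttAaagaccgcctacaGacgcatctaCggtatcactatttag
*Bglap2* differs from *Bglap* at 4 of the 288 coding bases and *Bglap3* at 13. The transcripts of *Bglap* and *Bglap2* share an identical run of 241 bases, and those of *Bglap* and *Bglap3* a run of 81 bases. *Bglap2* had 8 and 0 counts in unloaded and 5 and 0 in loaded libraries. *Bglap3*, which is expressed outside bone in mice, had 29 and 28 against 45 and 17 counts, and its log2 fold change was 0.036 with a 95% interval of -1.34 to 1.41 (edgeR adjusted p = 0.986). How the counts were split between the copies is uncertain, but their sum stayed between 0.671 and 1.67 CPM in every library. Counted osteocalcin RNA was thus low in both groups, whichever copy it was assigned to. Whether reads that match several copies were counted is not given in the sources used here.

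Mineral formation also needs phosphate carriers, enzymes that set the ratio of phosphate to pyrophosphate, and proteins of matrix vesicles. Of 13 such genes 12 were tested, with a median log2 fold change of -0.022. DESeq2 and edgeR's exact test each called *Slc20a1* higher and *Tgm2* lower at 0.01. DESeq2 called 2.91% of the genes to which it gave an adjusted p, and the exact test 1.71% of all tested genes. The quasi-likelihood test and limma-voom called none at 0.01, and 3 had an unadjusted edgeR p under 0.05, against 14.3%. *Slc20a1*, a sodium-phosphate cotransporter, had 1845 and 2019 counts in unloaded and 3065 and 2796 in loaded cells, or 65.1 ± 2.19 and 94.4 ± 0.834 CPM. Its log2 fold change was 0.54 with a 95% interval of 0.33 to 0.74 (edgeR adjusted p = 0.0595, DESeq2 adjusted p = 0.000136). *Tgm2*, a transglutaminase that crosslinks matrix proteins such as osteopontin, had 38.1 and 39.9 CPM in unloaded and 21.8 and 21.2 CPM in loaded cells. Its log2 fold change was -0.86 with a 95% interval of -1.10 to -0.62 (edgeR adjusted p = 0.0287, DESeq2 adjusted p = 1.91e-05). Both genes share exonic bases with genes on the opposite strand, and whether counting used strand is not given in the sources used here. For *Tgm2* these are *Gm20412*, with 0 counts in every library, and *Rprd1b*. *Rprd1b* had 705 and 873 counts in unloaded and 584 and 579 in loaded libraries, both loaded values being lower here too. For *Slc20a1* these are *Gm4430*, with 100 and 145 counts in unloaded and 228 and 164 in loaded libraries, and *9830144P21Rik*, with 74 to 106 counts. The part of these genes in the values was not tested. The matrix vesicle annexins *Anxa2* and *Anxa5* had the highest levels of the list per length. *Anxa2* had 980 ± 12.6 and 977 ± 4.36 CPM, and *Anxa5* had 301 ± 7.43 and 292 ± 3.24 CPM. *Anxa6*, the third of the 3 genes with an unadjusted p under 0.05, had 89.5 ± 0.931 and 69.7 ± 5.23 CPM (log2 fold change -0.36, 95% interval -0.58 to -0.14, edgeR adjusted p = 0.164, DESeq2 adjusted p = 0.0552). *Enpp1*, which makes pyrophosphate, had at most 10 counts in a library.

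**Figure D4:**
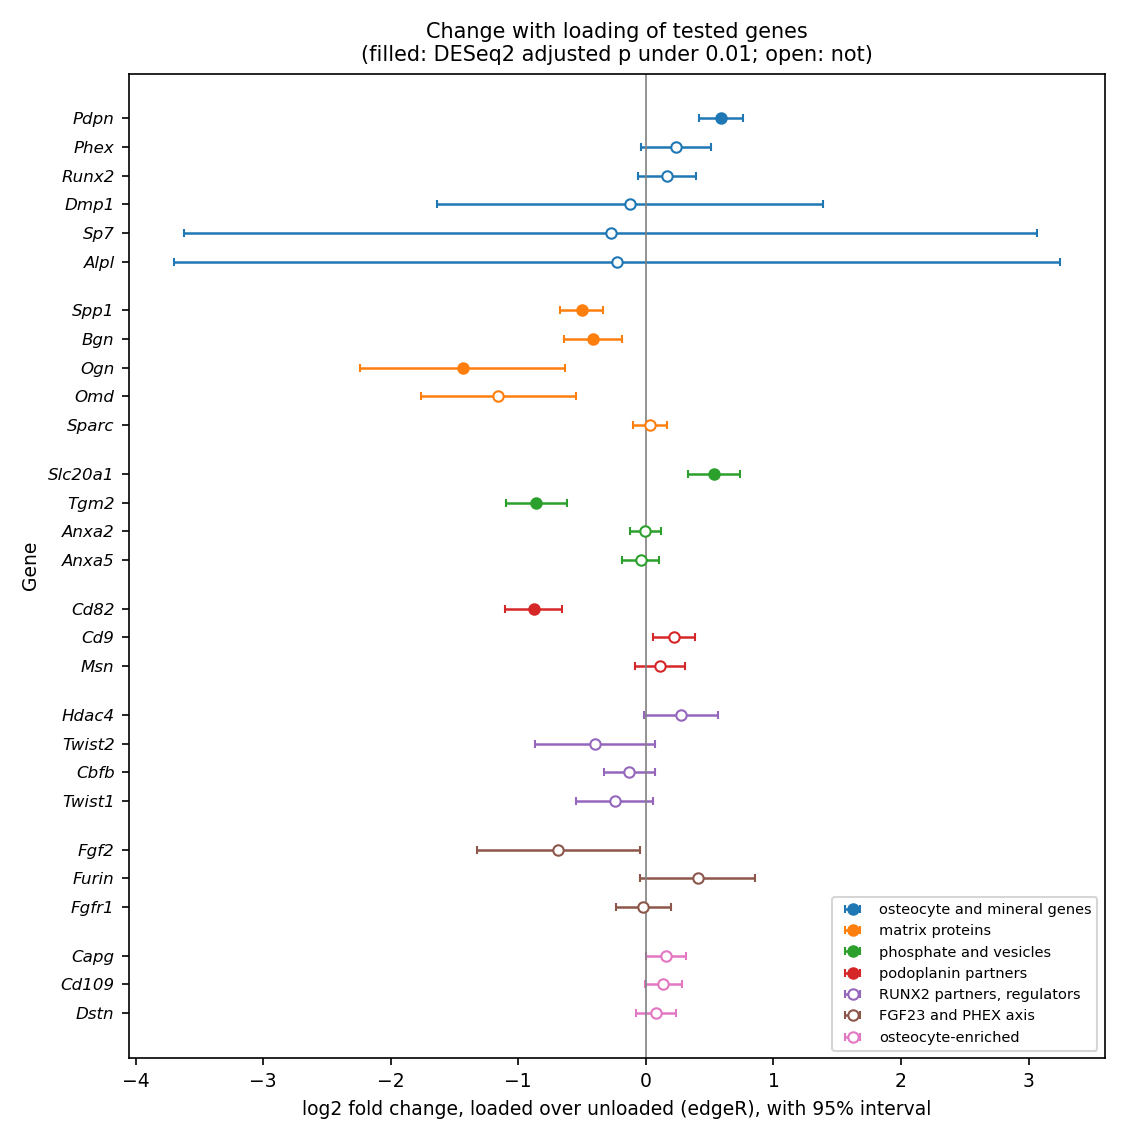
The log2 fold change of loaded over unloaded cells (horizontal axis) with its 95% interval from edgeR's quasi-likelihood fit for the tested genes of the group and the named genes of each list (vertical axis). Filled points had a DESeq2 adjusted p under 0.01, among them *Pdpn* at 0.59 and *Spp1* at -0.50, and the intervals of *Sp7* and *Alpl* reach past 3 on both sides of 0.

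The label of the cells was compared with markers of bone and of other cell types. Type I collagen, the main protein of bone matrix, was abundant. *Col1a1* had 1012 ± 28.0 and 953 ± 31.2 CPM, or 154 ± 4.27 and 145 ± 4.75 CPM per kilobase. Lists of 5 other cell types, summed in CPM, were low apart from single genes. The adipocyte list summed to 7.27 to 9.29 CPM with *Adipoq*, *Lep* and *Cidec* at 0 counts, and the endothelial list to 1.71 to 3.37 CPM with *Emcn* at 0. *Kdr* of this list encodes the main receptor of vascular endothelial growth factor. It had 17 and 14 counts in loaded cells and none without loading (edgeR adjusted p = 0.135). The exact test of edgeR called *Kdr* higher at 0.01, against 1.71% of all tested genes called in either direction. *Kdr* passed the filter on low counts through the loaded libraries alone, so no change is read from this call. The 2 other tested genes of the list had lower values in loaded cells. The chondrocyte list summed to 17.8 to 21.2 CPM, carried by *Sox9*, with *Acan* and *Matn3* at 0. The blood cell list summed to 1579 and 1589 CPM in unloaded and 1561 and 1565 CPM in loaded cells. Its groups did not overlap, nor did those of 46.6% of all tested genes. Nearly all of the blood cell sum came from *Csf1r*, the receptor of macrophage colony-stimulating factor. The sum was higher than the CPM of *Col1a1* in every library. *Ptprc*, which marks all white blood cells, was listed at 3 counts in loaded replicate 1 and at 0 elsewhere, and *Cd3e* had none. *Cd68*, a lysosomal protein gene of macrophages, had 5.12 ± 0.654 and 2.94 ± 0.177 CPM (edgeR adjusted p = 0.216). The osteoclast list summed to 33.7 and 32.7 CPM in unloaded and 19.9 and 18.6 CPM in loaded cells. Its groups did not overlap either, beside the same 46.6% of all tested genes. The difference followed *Mmp9*, a gelatinase, with 28.2 ± 0.563 and 11.4 ± 0.568 CPM (edgeR adjusted p = 0.0137, DESeq2 adjusted p = 1.18e-08). At 0.01 DESeq2 called 2.91% of the genes to which it gave an adjusted p. *Ctsk*, the collagen-cleaving protease of osteoclasts, had 4.99 ± 0.198 and 7.64 ± 0.414 CPM (log2 fold change 0.61, of the opposite sign, edgeR adjusted p = 0.228). *Ocstamp* and *Dcstamp*, which osteoclasts need to fuse, had no count in any library. The part of these genes in the results above was not tested.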

How the data were processed

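RNA-seq of MLO-Y4 cells, in 2 unloaded and 2 loaded libraries grouped by their titles, was analysed from gene counts. Per the labels and the methods of the study, the authors depleted ribosomal RNA, mapped reads to mm10 with HISAT2 2.1.0, assembled transcripts with StringTie 1.3.5 and derived whole-number counts per gene from coverage with prepDE, and these counts were deposited without normalization. The annotation and strandedness are not given in the sources used here. All 55450 identifiers matched GENCODE M21 (GRCm38), which supplied coordinates and exon lengths.

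Genes were filtered with filterByExpr (count minimum 10, 16269 genes kept), normalized by TMM and compared by the edgeR 4.0.16 quasi-likelihood F test (R 4.3.3). The Benjamini-Hochberg adjustment covered all 16269 genes, and the threshold was 0.01. Standard errors were the fold change over the square root of F, and 95% intervals used the t distribution. SDs are over 2 libraries. Replicates differed beyond counting noise, with a chi-square per degree of freedom of 17.9 in unloaded and 20.2 in loaded libraries. Alternatives were limma-voom (limma 3.58.1), DESeq2 1.42.0, the exact test of edgeR, RLE and upper-quartile factors, other filters, a threshold of 0.05, the replicate block and leaving out each library. The test was tried first on simulated counts. The genes and lists were chosen with earlier results of these data known. From each list, called genes, the 2 with the smallest p and the 2 with the highest level were named, with all osteocalcin and SIBLING genes. Genes listed at 0 counts, the marker genes and some genes overlapping a named gene were added to these. So were *Clec1b*, *Mef2c*, *Hdac5*, *Gja1*, *Enpp1*, *Tnc* and *Anxa6*, which were chosen after their values were seen. Exons of other named genes, among them *Fgf2*, *Twist2*, *Hdac4* and *Csf1r*, also overlap those of genes whose counts are not given here. A gene of the list of RUNX2 partners is not reported here, and the values of that list leave it out.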

Additional observations from a re-analysis of the deposited data

How the results depend on the processing

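In the main test 16 genes of the whole table passed the threshold, 2 higher and 14 lower in loaded cells, and 0 of the 10 osteocyte and mineral genes. RLE factors, upper-quartile factors and limma-voom kept these counts within 1.5 times. The counts were 363 (170 higher, 193 lower) with DESeq2, 279 (104 and 175) with edgeR's exact test, 147 (55 and 92) at an adjusted p under 0.05, and 29 (4 and 25) with at least 10 counts in every library. Of the 10 genes, 1, *Pdpn*, passed in the first 3 of these. The count was 0 in each direction without a filter on low counts and with the replicate block. Same-numbered libraries did not deviate together over all tested genes (correlation -0.0846). Whether they shared a batch that acted on some genes was not tested. With a library left out, the count ranged from 0 to 58 (0 to 19 higher, 0 to 40 lower). It was 50 without unloaded replicate 1, 58 without unloaded replicate 2, and 0 without either loaded library. Here a lone library was assumed to vary like the other group. The causes of these shifts were not tested.

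The log2 fold change of *Pdpn* stayed between 0.55 and 0.64 in every alternative. The direction of genes near 0 or with low counts turned. *Dmp1* ranged from -0.26 to 0.032, *Sp7* from -6.83 to 0.70 (0.56 without unloaded replicate 1) and *Alpl* from -6.08 to 0.81 (0.78 without loaded replicate 1) when a library was left out. *Bglap3* was at -0.081 with limma-voom and at -0.080 with the replicate block. With a library left out, *Bglap3* ranged from -0.75 to 0.53 and *Fgfr1* from -0.12 to 0.074. *Anxa2* was at 0.0039 with DESeq2, 0.0053 with RLE factors, 0.00013 with at least 10 counts in every library, and ranged from -0.0095 to 0.0086 with a library left out. Depth limits the low genes, whose values rest on few counts.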
